A study of Mus musculus with 7 samples.

Results

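The BCL2 family was followed here in light zone germinal centre B cells through 10 genes, 5 that protect cells and 5 that promote their death, out of 48795 gene identifiers in the count table. They were chosen by name: Bcl2, Bcl2l1, Mcl1, Bcl2a1b and Bcl2a1d as anti-apoptotic genes, Bax and Bak1 as pro-apoptotic effectors, and Bcl2l11, Bbc3 and Pmaip1 as BH3-only genes. All 10 were found by symbol in GENCODE vM21, and 9 of them had enough counts to be tested, Bbc3 being the exception. RNA came from sorted mouse splenic B cells. Both groups had received sheep red blood cells by the intravenous route, an antigen that raises germinal centres, and were taken on day 10. The 3 MIZ1KO libraries carry MizFF in their titles and the 4 Control libraries carry eYFP. MIZ1, encoded by Zbtb17, is a zinc finger transcription factor that activates some genes and represses others in a complex with MYC. The sources used here do not give the driver of the deletion, or the strain, age and number of the animals. Nothing says that the replicates are separate animals, so the p-values reflect only how these libraries vary, and that variation may be technical.

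BCL2 family proteins meet at the outer mitochondrial membrane. BAX and BAK form pores there that release cytochrome c and start caspase activation. Anti-apoptotic members hold BAX, BAK and the BH3-only proteins in check, and BH3-only proteins relay stress and lost survival signals by occupying the anti-apoptotic members or by activating BAX and BAK directly. Germinal centre B cells are known for low BCL2, from repression by BCL6, and for their need of MCL1, while BFL1/A1, the product of the Bcl2a1 genes, is induced by B cell receptor, CD40 and NF-kB signals. MIZ1 has been reported to activate BCL2, an effect that MYC counters.

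Library totals ran from 7030988 to 9482453 estimated counts in MIZ1KO and from 6896673 to 9150424 in Control, of which 46.4% to 56.1% lay in ribosomal RNA models in MIZ1KO and 48.9% to 52.7% in Control. Zbtb17 measured 5.15, 3.69 and 4.49 CPM (counts scaled to library size) in MIZ1KO and 3.14, 3.42, 3.14 and 7.0 CPM in Control, with a log2 fold change of MIZ1KO over Control of 0.03 ± 0.46 (SE; adjusted p = 0.975, edgeR). The counts cover the whole gene, so this level does not check a deletion of part of it. GENCODE models of the class TEC, mostly unspliced, took 0.544% to 0.923% of non-ribosomal counts in MIZ1KO and 1.02% to 2.58% in Control, without overlap. All 13 germinal centre B cell markers and all 11 light zone markers were measured. Of the 11 light zone markers 7 had a log2 fold change below 0 and 0 passed (edgeR; 3 with an unadjusted p under 0.05). Cd74 made up most of their summed CPM, at 6642 to 10594 CPM in MIZ1KO and 4437 to 5599 CPM in Control, and the other 10 summed to between 835 and 956 CPM in MIZ1KO and between 890 and 1004 CPM in Control, which overlap. Of the 9 dark zone markers 0 passed (edgeR; 1 with an unadjusted p under 0.05), and without Mki67, the most abundant, the other 8 summed to between 552 and 651 CPM in MIZ1KO and between 489 and 660 CPM in Control. Of the 13 germinal centre B cell markers 2 passed, Cd79a higher (adjusted p = 0.0333, edgeR) and Rgs13 lower (adjusted p = 0.023, edgeR), and 7 had an unadjusted p under 0.05. Beside these marker counts, 5.96% of all genes tested passed and 24.6% had an unadjusted p under 0.05 (edgeR). The 12 T cell markers summed to 4.72, 16.2 and 28.4 CPM in MIZ1KO and to between 0.393 and 3.57 CPM in Control. Trbc2, the one of them with enough counts to be tested, passed (adjusted p = 0.019, edgeR), on 11, 38.8 and 26.3 estimated counts in MIZ1KO and 0, 0, 3 and 0 in Control. Cd3g, Cd8b1 and Il7r had no counts in MIZ1KO replicate 1, where each of the other T cell markers had between 2 and 11 counts. Cd3g also had no counts in any Control library. Cd3e, Trac, Trbc2 and Thy1 were higher in every MIZ1KO library than in every Control library. The summed CPM of the 14 myeloid and the 6 erythroid markers overlapped between the groups, and C1qa, Ly6g and Ngp of the myeloid list had no counts in any library. In these bulk samples fewer cells of a type and less RNA per cell cannot be told apart.

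None of the 9 tested members passed an adjusted p of 0.05, where 5.96% of the 11618 genes tested did by the quasi-likelihood test of edgeR, 1.9% higher and 4.05% lower in MIZ1KO. Before adjustment, 2 members had p under 0.05, Bcl2a1b and Bcl2l1, beside 24.6% of all genes tested. DESeq2 and limma-voom also called 0 members. Bax alone lay higher in every MIZ1KO library than in every Control library, an arrangement seen for 8.74% of tested genes, and 0 members lay lower without overlap, against 10.8% of tested genes. The median log2 fold change was -0.02 over the 9 members and -0.03 over all genes tested, with 4 members above 0 and 5 below.

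**Figure D1:**
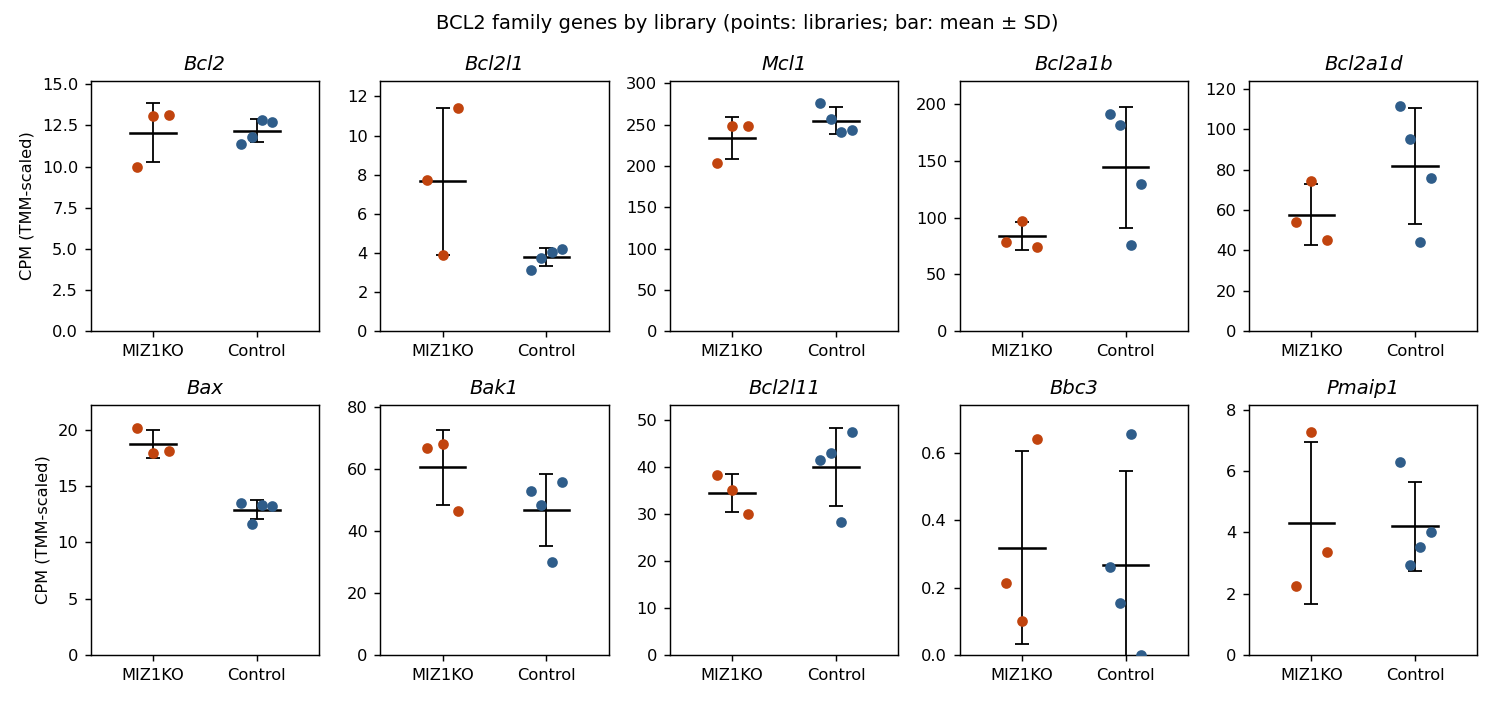
CPM of each of the 10 BCL2 family genes (vertical axis, from 0) in the MIZ1KO libraries (orange) and the Control libraries (blue); each point is a library, the horizontal line the mean and the bar the SD. Bax is the gene whose groups do not overlap, and Bcl2a1b is spread from 75.6 to 191 CPM within Control.

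Within the cells, the Bcl2a1 copies and Mcl1 carried the anti-apoptotic transcript, and Bcl2 and Bcl2l1 were scarce. Per kilobase of exonic length, the level over the 7 libraries averaged 145 CPM for Bcl2a1b, 82.8 for Bcl2a1d, 71.9 for Mcl1, 21.9 for Bak1, 9.78 for Bax, 4.68 for Bcl2l11, 1.55 for Pmaip1, 1.32 for Bcl2, 1.19 for Bcl2l1 and 0.136 for Bbc3. Bcl2a1b, Bcl2a1d and Mcl1 exceeded 98.1%, 97.3% and 97.0% of the tested genes on this scale, whereas Bcl2 exceeded 23.4% and Bcl2l1 fewer still. The library ranges of Bcl2a1b and Bcl2a1d overlapped, as did those of Bak1 and Bax, although the first of each pair was higher within every library. The ranges of Bcl2a1d and Mcl1 also overlapped, as did those of Pmaip1, Bcl2 and Bcl2l1. The order of Bcl2a1d and Mcl1, and of Pmaip1, Bcl2 and Bcl2l1, is not settled by these data.

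The Bcl2a1 genes are near-identical copies on chromosome 9 that arose by duplication in the mouse, and their sequences show what any count of a single copy rests on. Bcl2a1b (ENSMUSG00000089929, 89199209 to 89207827 in GRCm38) and Bcl2a1d (ENSMUSG00000099974, 88723285 to 88731914) differ at 6 of 519 coding bases, G4T, T48C, A94C, G312A, C381G and T490A, counted from the A of the start codon with the Bcl2a1b base first. Of the 470 windows of 50 coding bases, 246, or 52.3%, are found in both copies, and the longest identical run is 217 bases. The first 100 coding bases of the transcripts in GENCODE vM21 are shown because they hold 3 of the 6 differences. Capitals mark the bases at which Bcl2a1b and Bcl2a1d differ, and in Bcl2a1a those at which it differs from Bcl2a1b.
Bcl2a1b: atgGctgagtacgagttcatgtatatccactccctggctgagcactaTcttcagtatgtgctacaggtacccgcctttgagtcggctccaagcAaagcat
Bcl2a1d: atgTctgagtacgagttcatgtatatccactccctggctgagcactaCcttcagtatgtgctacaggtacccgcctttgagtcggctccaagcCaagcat
Bcl2a1a: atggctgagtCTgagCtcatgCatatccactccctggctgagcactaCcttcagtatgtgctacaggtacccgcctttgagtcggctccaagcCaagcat
Another copy, Bcl2a1a, is 98.7% identical to Bcl2a1d in its coding bases and was listed at 2.54 to 40.5 estimated counts a library. Bcl2a1c had no counts. The estimated counts of Bcl2a1b and Bcl2a1d were not whole in any library, and neither was the sum of the 4 copies. Between which gene models reads were divided cannot be told from the counts. Gm29094, a model on the same strand that shares 401 exonic bases with Bcl2a1b, measured at most 1.61 CPM in MIZ1KO and 1.71 CPM in Control.

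Bcl2a1b had the smallest p of the members. It measured 78.5, 97.4 and 74.3 CPM in the MIZ1KO libraries and 191, 182, 75.6 and 129 CPM in the Control libraries. Control replicate 3 lay inside the MIZ1KO range, while the other 3 Control libraries lay above it. The log2 fold change was -0.79 ± 0.27 (SE; 95% interval -1.34 to -0.23) and did not pass, with an adjusted p of 0.0821 (edgeR). Without Control replicate 3 the value was -0.95 with an adjusted p of 0.018, which passes. Corrected for GC content and exonic length, it was -0.38 (adjusted p = 0.289, edgeR), and with the share of nuclear RNA (TEC models, Malat1, Neat1 and Xist) as a covariate it was -1.77 (adjusted p = 0.0422, edgeR), although that share did not overlap between the groups, at 1.19% to 2.004% in MIZ1KO and 2.48% to 6.24% in Control.

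Bcl2a1d measured 53.8, 74.3 and 45.1 CPM in MIZ1KO and 111, 95.2, 44.3 and 76.0 CPM in Control. Its libraries follow the order of Bcl2a1b in Control, and the groups overlap. The log2 fold change was -0.49 ± 0.27 (SE; adjusted p = 0.271, edgeR), and -0.14 once corrected for GC content and length. With the 4 copies summed before the fit, Bcl2a1 averaged 142 ± 26.9 CPM over the 3 MIZ1KO libraries and 228 ± 81.3 CPM over the 4 Control libraries (SD). The log2 fold change of the sum was -0.68 ± 0.27 (SE; adjusted p = 0.129, edgeR). The ratio of Bcl2a1d to Bcl2a1b was 0.686, 0.763 and 0.607 in MIZ1KO and between 0.524 and 0.588 in Control, so every MIZ1KO library held relatively more of the Bcl2a1d estimate. The sources used here do not say how reads were shared among the copies.

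Among 6651 genes with a mean of at least 10 CPM, Atp5e, Pfdn5 and Gm15500 followed Bcl2a1b most closely over the 7 libraries, with root mean square differences in centred log2 CPM of 0.0801, 0.0867 and 0.103. Bcl2a1d came 26th by this measure. Atp5e, an ATP synthase subunit gene, measured 133, 177 and 134 CPM in MIZ1KO and 340, 288, 125 and 244 CPM in Control, with Control replicate 3 again the low library of its group. The exonic lengths of Atp5e, Pfdn5 and Gm15500 are 1756, 1394 and 1019 bases, against 817 for Bcl2a1b and a median of 4142 over the genes tested. Only 5.12% of tested genes are shorter than Bcl2a1b; the part of transcript length in its difference was not tested beyond the correction above.

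Mcl1, whose short-lived protein binds BIM, NOXA and BAK, had the smallest standard error of the members. It measured 204, 248 and 249 CPM in MIZ1KO and 277, 257, 241 and 243 CPM in Control, on 1549 to 2491 counts a library. The groups overlap, and the log2 fold change was -0.12 ± 0.20 (SE; adjusted p = 0.752, edgeR). The 95% interval of the fold ran from 0.688 to 1.23.

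Bcl2 measured 9.97, 13.1 and 13.2 CPM in MIZ1KO and 11.4, 11.8, 12.8 and 12.7 CPM in Control. The Control values fall inside the MIZ1KO range, and the log2 fold change was -0.02 ± 0.30 (SE; adjusted p = 0.974, edgeR), with a fold between 0.64 and 1.52 at 95%. It rested on 75.8 to 131 counts a library, and its sign changed in 10 of 22 alternatives without passing in any. Bcl2 (ENSMUSG00000057329) lies on chromosome 1 from 106538178 to 106714274, where the antisense model D630008O14Rik shares 558 exonic bases with it and measured at most 0.199 CPM in MIZ1KO and 1.31 CPM in Control.

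Bcl2l1, which encodes BCL-XL and, by splicing, a pro-apoptotic short form that a count per gene cannot separate, differed most in size. It measured 7.72, 3.89 and 11.4 CPM in MIZ1KO and 3.14, 3.73, 4.06 and 4.2 CPM in Control. Replicates 1 and 3 of MIZ1KO lay above every Control library, and replicate 2 lay among them. The log2 fold change was 0.95 ± 0.45 (SE; adjusted p = 0.198, edgeR), and the interval of the fold was wide, from 1.01 to 3.71, on 24 to 72 counts a library. With MIZ1KO replicate 2 left out the log2 fold change was 1.36 (adjusted p = 0.0744, edgeR), and without replicate 3 it was 0.61 (adjusted p = 0.496, edgeR). Corrected for GC content and length, it was 0.65 (adjusted p = 0.431, edgeR). The T cell markers summed to 4.72, 16.2 and 28.4 CPM in MIZ1KO and to between 0.393 and 3.57 CPM in Control. The erythroid markers, from cells in which Bcl2l1 is abundant, summed to 60.9, 226 and 488 CPM in MIZ1KO and to between 114 and 424 CPM in Control, with the lowest sum in MIZ1KO replicate 1. The part of T cells or erythroid cells in the Bcl2l1 values was not tested.

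The effectors stood higher in MIZ1KO on average without passing. Bax, which moves from the cytosol to mitochondria when activated, measured 20.2, 17.9 and 18.1 CPM in MIZ1KO and 13.5, 11.6, 13.4 and 13.2 CPM in Control. The groups are separate, yet the log2 fold change of 0.53 ± 0.27 (SE; 95% interval -0.03 to 1.09) had an adjusted p of 0.225 (edgeR). Bak1, the effector resident in the mitochondrial membrane, measured 66.8, 68.3 and 46.6 CPM in MIZ1KO and 53.0, 48.4, 29.9 and 55.8 CPM in Control, with overlap and a log2 fold change of 0.38 ± 0.24 (SE; adjusted p = 0.346, edgeR). Both transcripts are rich in G and C, 59.0% for Bax and 57.3% for Bak1, above 95.9% and 91.2% of tested genes. Corrected for GC content and length, their log2 fold changes were 0.06 and -0.06 (adjusted p = 0.928 and 0.919, edgeR). On the opposite strand, 2 annotated models of Ggnbp1 share 177 and 437 exonic bases with Bak1, and Ggnbp1 measured 6.68 to 13.6 CPM in MIZ1KO and 5.76 to 13.2 CPM in Control.

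Of the BH3-only genes, Bcl2l11 was the abundant one. Bcl2l11 encodes BIM, the main killer of B cells that lose survival signals, and measured 38.2, 35.0 and 30.02 CPM in MIZ1KO and 41.5, 42.8, 28.2 and 47.4 CPM in Control. The groups overlap through Control replicate 3, and the log2 fold change was -0.21 ± 0.23 (SE; adjusted p = 0.615, edgeR). Pmaip1, which encodes NOXA, a p53 target that neutralises MCL1 and A1, measured 2.25, 7.28 and 3.37 CPM in MIZ1KO and 6.28, 2.95, 3.54 and 4.0 CPM in Control. Its log2 fold change of 0.07 ± 0.50 (SE; adjusted p = 0.950, edgeR) rests on 19 to 73 counts. It was -0.56 without MIZ1KO replicate 2 and -0.05 without Control replicate 2, so single libraries set its sign. Bbc3, which encodes PUMA, another p53 target, had 2, 1 and 4 counts in the MIZ1KO libraries and 2, 1, 5 and 0 in the Control libraries. The count of 0 in Control replicate 4 allows up to 0.3 CPM, and no fold is given for so few counts.

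**Figure D2:**
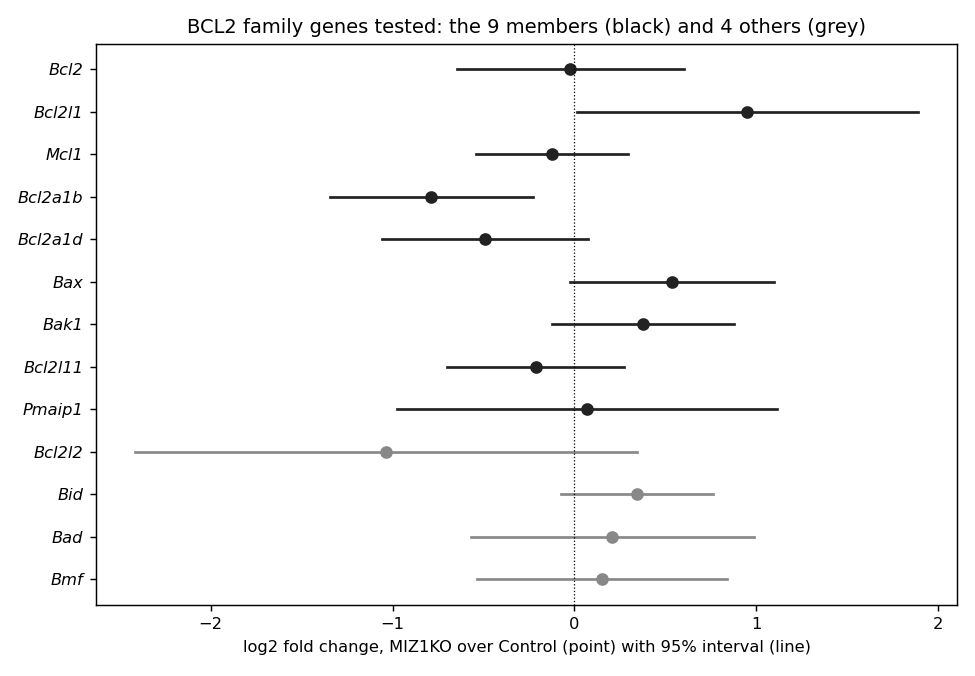
Log2 fold change of MIZ1KO over Control (horizontal axis) for the 9 tested members (black) and 4 other BCL2 family genes (grey), with lines for the 95% interval. The intervals of Bcl2a1b and Bcl2l1 leave out 0 before adjustment, and none of the 13 passed after adjustment over all genes.

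Set against each other, the pro-apoptotic members summed to 128, 129 and 98.7 CPM in MIZ1KO and to 115, 106, 75.6 and 120 CPM in Control. The anti-apoptotic members summed to 354, 437 and 393 CPM in MIZ1KO and to 593, 549, 378 and 465 CPM in Control. The ratio of the 2 sums within a library, which no scaling of libraries alters, was 0.36, 0.294 and 0.251 in MIZ1KO and 0.193, 0.193, 0.2 and 0.259 in Control. This ratio can still depend on GC content and length, and it was not computed with the correction for them. MIZ1KO replicate 3 lay just below Control replicate 4, so the groups overlap, and since the members were picked the ratio carries no test. Its log2 averaged -1.74 ± 0.26 over the MIZ1KO libraries and -2.25 ± 0.20 over the Control libraries (SD), a difference of 0.51. As the mean of log2 values, in which scarce genes weigh as much as abundant ones, the difference was 0.25, and per kilobase, in which the short Bcl2a1 copies weigh more, it was 0.83. Leaving out Bcl2a1b and Bcl2a1d gave 0.29. The log2 ratio was then -0.80, -1.04 and -1.47 in MIZ1KO and -1.35, -1.36, -1.77 and -1.11 in Control, which overlap. With the other pro- and anti-apoptotic family genes added, the log2 ratio was -0.53, -0.93 and -1.01 in MIZ1KO and -1.42, -1.53, -1.27 and -1.30 in Control, where the groups do not overlap. Bid was the most abundant of the added genes, at a mean of 78.4 CPM in MIZ1KO and 61.9 CPM in Control. It did not pass (adjusted p = 0.301, edgeR), and this wider ratio was not computed without it.

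On the pro-apoptotic side the shares of Bcl2l11 and Bak1 were separate between the groups, while the share of every anti-apoptotic member overlapped. Bcl2l11 held 29.9%, 27.2% and 30.4% of the summed pro-apoptotic CPM in MIZ1KO and between 36.2% and 40.4% in Control, without overlap. Bak1 held between 47.2% and 53.1% of it in MIZ1KO and between 39.5% and 46.3% in Control, also without overlap, but per length its shares overlapped. Of the anti-apoptotic members Mcl1 held between 56.8% and 63.3% of the CPM in MIZ1KO and between 46.6% and 63.8% in Control, which overlap. The ratio of Bax to Mcl1 was between 0.0723 and 0.0988 in MIZ1KO and between 0.0453 and 0.0554 in Control. The ratios of Bcl2l11 to Mcl1 overlapped, from 0.121 to 0.187 in MIZ1KO and from 0.117 to 0.195 in Control. Those of Bak1 to Mcl1 also overlapped, from 0.187 to 0.327 in MIZ1KO and from 0.124 to 0.23 in Control. The ratios of Bcl2l11 to Bcl2a1b, Pmaip1 to Mcl1 and Bcl2l1 to Bcl2 overlapped too. The shares and ratios are descriptions with no test, on CPM that is neither divided by length nor corrected for GC content.

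**Figure D3:**
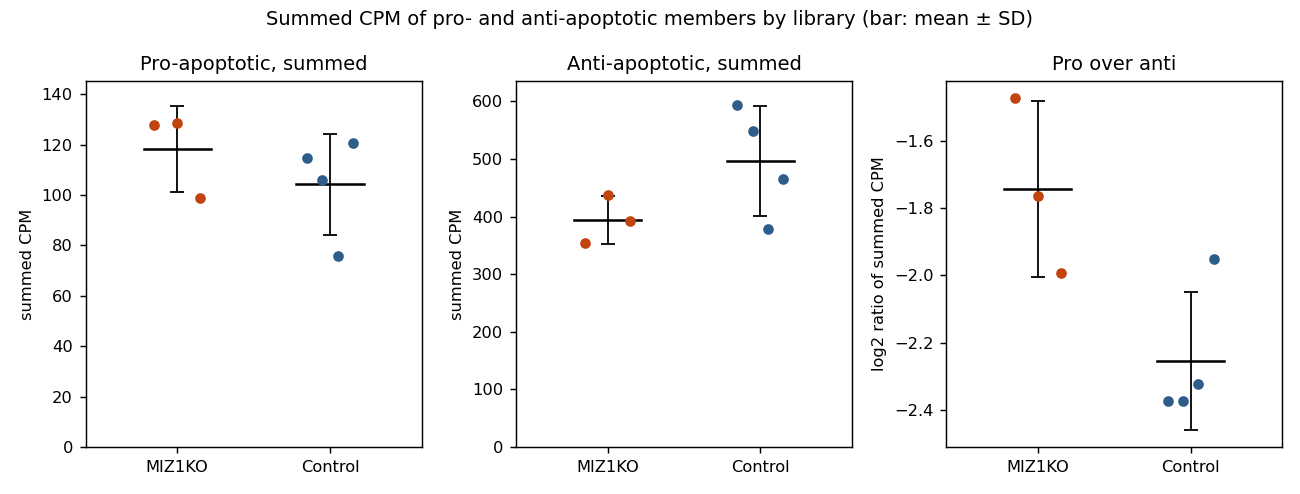
Summed CPM of the 5 pro-apoptotic members (left) and the 5 anti-apoptotic members (middle) and the log2 ratio of the sums (right, axis not from 0), by library, with the mean and SD; MIZ1KO is orange and Control blue. Control replicate 4, at -1.95, stands among the MIZ1KO libraries, while the other 3 Control libraries lie between -2.37 and -2.32.

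The rest of the family added no call. Of the other anti-apoptotic genes, Bcl2l2, which encodes BCL-W, was the one tested, at 1.47 ± 0.121 CPM in MIZ1KO against 2.86 ± 1.83 CPM in Control (SD over 3 and 4 libraries; adjusted p = 0.349, edgeR), and Bcl2l10 had no counts. Control replicate 2 held 1.46 estimated counts of Bcl2l2, against 26 to 37 in the other Control libraries. Gm20521, a model on the same strand, shares 594 exonic bases with Bcl2l2. Of the other pro-apoptotic genes, Bid, whose cleaved product links death receptors to mitochondria, averaged 78.4 ± 5.22 CPM in MIZ1KO against 61.9 ± 10.2 CPM in Control (SD), a log2 fold change of 0.34 ± 0.20 (SE; adjusted p = 0.301, edgeR). Bad, a BH3-only gene regulated by survival kinases, had a log2 fold change of 0.21 ± 0.37 (SE; adjusted p = 0.778, edgeR), and Bmf one of 0.15 ± 0.33 (SE; adjusted p = 0.824, edgeR). Bik and Hrk had no counts, and Bok had 1 count in all. Among 7 tested BCL2-like genes 0 passed, and Bcl2l13, a mitophagy receptor, was lower in every MIZ1KO library, at 19.6 ± 2.51 CPM in MIZ1KO against 29.8 ± 5.70 CPM in Control (SD, n = 3 and 4; adjusted p = 0.149, edgeR). Bnip2 of the same list had a log2 fold change of 0.26 ± 0.21 (SE; adjusted p = 0.465, edgeR). Bcl2l13 and Bid share 628 exonic bases on opposite strands, and the estimated counts of both were not whole in any library. Their opposite differences may therefore not be separate results, and how reads were divided between them was not tested.

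Of 63 other tested genes around the family, 2 passed, both higher in MIZ1KO, beside 5.96% of all genes, and 17 or 27.0% had no overlap between the groups beside 19.5% of all genes. Downstream of the mitochondrial pore 0 of 14 passed. The channel gene Vdac1 measured 0.67 ± 0.23 on the log2 scale (SE; adjusted p = 0.0845, edgeR) and Aifm1, a mitochondrial oxidoreductase that can reach the nucleus in dying cells, 0.78 ± 0.28 (SE; adjusted p = 0.0977, edgeR). Among 15 genes for partners and protein turnover of the family 0 passed, with Bag6 at 0.66 ± 0.24 (SE; adjusted p = 0.0971, edgeR) and Rnf7, a partner of cullin ubiquitin ligases, at -0.82 ± 0.33 (SE; adjusted p = 0.136, edgeR). With the nuclear RNA share as a covariate Rnf7 was at -2.16 and passed (adjusted p = 0.0422, edgeR).

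Among 23 tested transcription factors known to act on family genes, Rela and Spi1 passed as higher in MIZ1KO and 0 passed as lower. Over all genes tested, 1.9% passed as higher and 4.05% as lower. Rela, the p65 subunit of NF-kB, measured 39.9, 32.0 and 37.4 CPM in MIZ1KO and 14.3, 15.7, 11.9 and 16.2 CPM in Control, with every MIZ1KO library above every Control library. The log2 fold change was 1.32 ± 0.24 (SE; adjusted p = 0.0095, edgeR). The call ended in 5 of 22 alternatives, among them leaving out MIZ1KO replicate 1 (adjusted p = 0.0628, edgeR) and correcting for GC content and length, where the value was 0.74 (adjusted p = 0.0884, edgeR). Spi1, which encodes PU.1, measured 47.8, 47.9 and 54.1 CPM in MIZ1KO and 31.5, 27.9, 24.6 and 30.5 CPM in Control, a log2 fold change of 0.80 ± 0.21 (SE; adjusted p = 0.036, edgeR), and its call ended in 11 of 22 alternatives. Corrected for GC content and length, Spi1 was at 0.40 (adjusted p = 0.267, edgeR). The call also ended on leaving out either MIZ1KO replicate 1 or 3 or any of Control replicates 2, 3 and 4 (adjusted p from 0.0579 to 0.125, edgeR). Spi1 is also a myeloid gene, and the myeloid markers summed to 6.43, 30.7 and 23.8 CPM in MIZ1KO and to between 9.03 and 13.9 CPM in Control, lowest in MIZ1KO replicate 1, where Spi1 stood at 47.8 CPM; their part in the Spi1 values was not tested. The other 4 NF-kB subunit genes did not pass. Rel averaged 244 ± 19.1 CPM in MIZ1KO against 320 ± 30.7 CPM in Control (SD; adjusted p = 0.241, edgeR), and Nfkb2 averaged 27.8 ± 6.62 CPM in MIZ1KO against 16.9 ± 4.95 CPM in Control (SD; adjusted p = 0.132, edgeR). Trp53 had a log2 fold change of 0.45 ± 0.19 (SE; adjusted p = 0.159, edgeR) and Bcl6 one of 0.29 ± 0.20 (SE; adjusted p = 0.382, edgeR). The NF-kB subunits other than Rela, and Trp53 and Bcl6, were chosen after their values were seen.

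**Figure D4:**
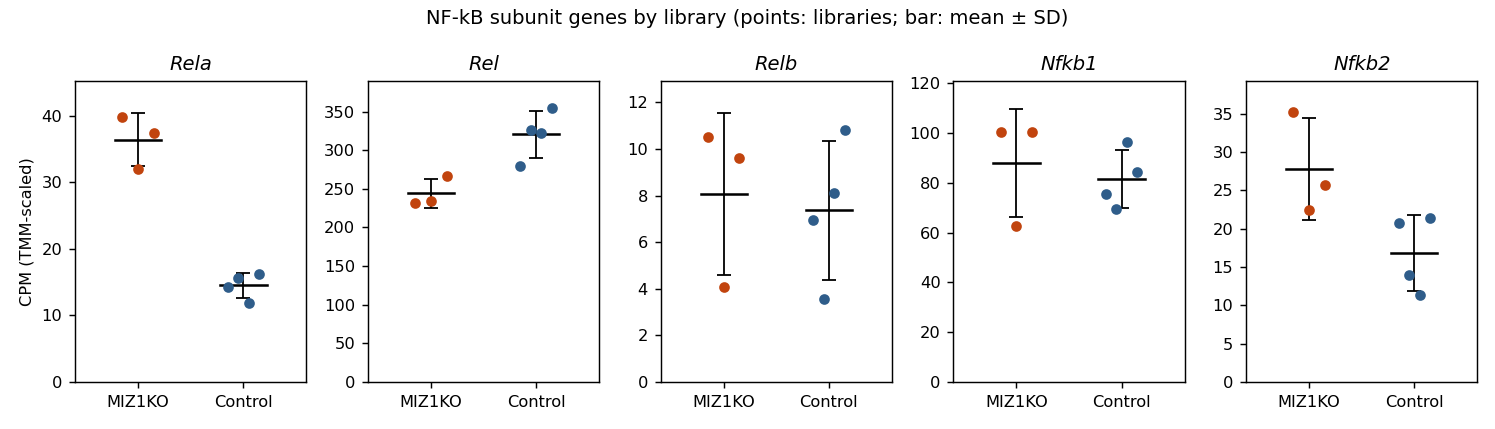
CPM of the 5 NF-kB subunit genes (vertical axes, from 0) by library, MIZ1KO in orange and Control in blue, with the mean and SD. Rela is separate and higher in MIZ1KO, at 32.0 to 39.9 CPM against 11.9 to 16.2 CPM in Control, and so is Nfkb2, at 22.4 to 35.2 CPM against 11.4 to 21.4 CPM, while Rel lies lower in MIZ1KO and Relb and Nfkb1 overlap.

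Since Bcl2a1 and Bcl2l1 are known NF-kB targets, the promoters of the members were searched for the kappaB consensus motif of 10 letters on both strands. RefSeq windows of GRCm38.p6, from 250 bases before to 50 after each annotated start, were found for 9 of the 10 members, Pmaip1 being the other. Of 27025 genes with such a window, 5.14% held a match, as did 2 of the 9 members, Bcl2l1 and Bbc3, each of which has several annotated starts. Bcl2a1b and Bcl2a1d had no match in their windows. The Bcl2l1 window with the match, chr2:152830668-152830967 on the minus strand, is shown 5′ to 3′ because Bcl2l1 differed most in size among the members; capitals mark the match, which is a description of letters and not of binding.
Bcl2l1: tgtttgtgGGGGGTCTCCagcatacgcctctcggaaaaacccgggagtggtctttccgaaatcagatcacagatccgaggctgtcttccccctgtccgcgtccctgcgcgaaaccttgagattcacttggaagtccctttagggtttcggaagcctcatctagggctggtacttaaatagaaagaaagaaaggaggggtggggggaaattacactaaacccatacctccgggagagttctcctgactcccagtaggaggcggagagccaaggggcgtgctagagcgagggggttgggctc

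**Figure D5:**
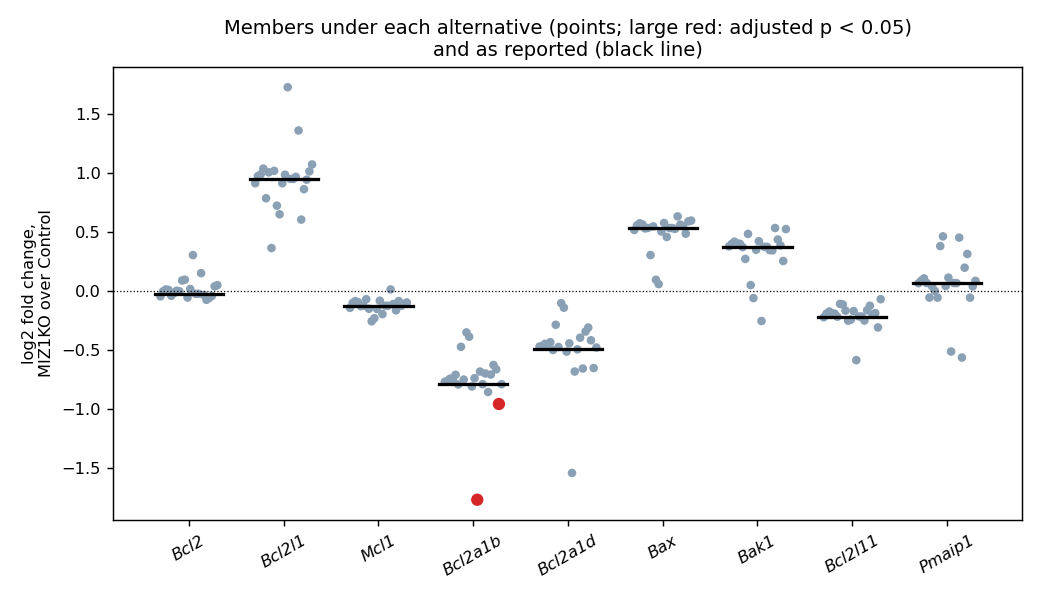
Log2 fold change of MIZ1KO over Control for each of the 9 tested members (vertical axis) as reported (black line) and under 22 alternatives (points), with large red points where the adjusted p was under 0.05. Bcl2a1b passed under 2 alternatives, at -0.95 and -1.77, and 0 alternatives carried any other member past the threshold.

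Across the alternatives Bcl2a1b and Bcl2a1d stayed below 0 and Bax and Bcl2l1 above 0 in all 22, with ranges of -1.77 to -0.35 for Bcl2a1b, -1.54 to -0.10 for Bcl2a1d, 0.06 to 0.63 for Bax and 0.37 to 1.73 for Bcl2l1. Mcl1 ranged from -0.25 to 0.02.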

How the data were processed

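Bulk RNA sequencing was available for 7 samples, 3 MIZ1KO and 4 Control by the genotype label. The authors deposited estimated counts per gene, not normalized and not all whole, and a table of log2 values that its name calls variance-stabilised. STAR 2.5.2, RSEM 1.3.0, DESeq2 1.18.1, R 3.4.3 and GRCm38 are named per the submitters' processing notes, with no role or order. The sources used here do not give the strand setting or the annotation.

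Counts were rounded, filtered with filterByExpr, scaled by TMM and tested in edgeR 4.0.16 under R 4.3.3 by quasi-likelihood (robust, two-sided), with Benjamini-Hochberg adjustment over 11618 genes. SE came from the log2 fold change and F. CPM uses TMM-scaled totals, which include ribosomal RNA. The members and gene lists were chosen with earlier results of these data known. Named genes were all members, and, of the other lists, genes that passed and the 2 with the smallest p in each. Other family genes are given as levels or values. The NF-kB subunits other than Rela, Trp53 and Bcl6 and the marker genes named were chosen after their values were seen. Alternatives included DESeq2 1.42.0, limma-voom 3.58.1, the deposited log2 values, other scalings and filters, a GC and length correction, and leaving out each library. Fits were also run on simulated counts without GC or length bias, which cannot show how they perform on these libraries. Within groups no pair of libraries agreed within sampling noise (lowest chi-square per degree of freedom 11.2).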

Additional observations from a re-analysis of the deposited data

Results flagged for a closer look

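In 4 of the 23 sets of Control values examined, 1 library stood far from the other 3 relative to the range of the set. For a single set, chance alone gives about 1 in 20. The sets share the same 4 libraries, so they are not independent. Bax was lowest in Control replicate 2, at 11.6 CPM against 13.2 to 13.5 CPM in the other Control libraries. Zbtb17 was highest in Control replicate 4, at 7.0 CPM. Bag6 was lowest in Control replicate 2, at 25.9 CPM. The log2 ratio of summed pro- to anti-apoptotic CPM was highest in Control replicate 4, at -1.95.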

How the results depend on the processing

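The members called numbered 0, except for 1, Bcl2a1b, with the nuclear RNA share as a covariate and 1 without Control replicate 3, so 0 to 1 when single libraries were left out. Over all genes 692 were called (221 higher and 471 lower in MIZ1KO), and 1094 with DESeq2, 342 with limma-voom, 245 with the GC and length correction, 315 among protein-coding genes only (140 higher and 175 lower), 56 with the nuclear RNA covariate, 27 against a minimum fold of 1.5, and 39 to 1348 with single libraries left out. Of the other pathway genes 2 were called, and 1 with library totals, 5 with DESeq2, 0 with the GC and length correction, 4 without ribosomal RNA genes, 1 with the nuclear RNA covariate (Rnf7, lower, and neither Rela nor Spi1), 0 against a minimum fold and 0 to 4 with single libraries left out. The sources used here do not say whether the replicate numbers pair the samples, and the main fit did not pair them. Deviations of same-numbered libraries correlated at 0.023, 0.066 and 0.162, and those of differently numbered libraries between -0.158 and 0.134. So few libraries cannot settle whether the samples were paired. With the replicate block 476 genes, 0 members and 1 other pathway gene were called, and with the block and the GC and length correction 67, 0 and 0. The pro-to-anti difference of 0.51 was 0.25 as a mean of log2 CPM, 0.19 on the deposited log2 values, 0.83 per kilobase and 0.38 to 0.64 with single libraries left out. It was not computed with the GC and length correction. Signs changed, none with a call, for Bcl2 at 0.016 without a filter, 0.011 in DESeq2, 0.0041 on deposited values, 0.091 with the block and correction, 0.097 with the correction, 0.019 without ribosomal RNA and 0.31 with the covariate; for Bak1 at -0.058 with the correction and -0.25 with the covariate; for Pmaip1 at -0.054 in limma-voom, -0.054 with the block and -0.51 with the covariate; and for Zbtb17 at -0.17 with the block and correction, -0.58 with the correction and -0.0009 among protein-coding genes. They also changed for Bad at -0.49 with the block and correction, -0.29 with the correction and -0.96 with the covariate, and for Bid at -0.17 and Bnip2 at -0.36 with the covariate. With single libraries left out, Bcl2 ran from -0.073 to 0.15, Mcl1 from -0.16 to 0.015, Pmaip1 from -0.56 to 0.45, Zbtb17 from -0.094 to 0.51 and Bad from -0.012 to 0.52. The cause was not tested. Depth limits Bbc3, Pmaip1 and Bcl2l1 most, at 0 to 5, 19 to 73 and 24 to 72 counts a library.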
